A study of Caenorhabditis elegans with 2 samples.

Results

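The regions described here are the strong LIN-11-GFP regions that lay far from gene starts: 687 of the 1979 nuclear regions ranked 1 to 2000 by signal in the authors' pooled list of 20692 regions. A region was kept when its summit, the base of highest signal, lay more than 1000 bp from every annotated start of a protein-coding gene and more than 200 bp from every tRNA, snoRNA, snRNA, rRNA and miRNA gene. The data come from chromatin immunoprecipitation and sequencing of whole late embryos of Caenorhabditis elegans, labelled 4.25 hours, collected by egg bleaching and of both sexes. Strain OP62 carried the unc-119(ed3) mutation on chromosome III and the integrated transgene wgIs62, which stably expresses LIN-11 with a C-terminal GFP-FLAG tag, and chromatin sheared by sonication was recovered with an antibody against GFP. There was 1 group of 2 biological replicates of this 1 strain and no second condition, and each value is an average over all cells of the embryo. The labels leave the starting point of the 4.25 hours unstated, and sequencing depth is unknown from these lists.

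LIN-11 is a LIM homeodomain transcription factor, known for its part in vulval cell fates and in the identity of several neuron types. LIM homeodomain proteins read AT-rich sites through the homeodomain, and their LIM domains bind cofactors such as the LIM domain-binding protein LDB-1. In C. elegans many messenger RNAs are trans-spliced, so an annotated start can lie downstream of the base where transcription begins, and sites far from annotated starts include enhancers in long introns and in the space between genes as well as unannotated starts. RNA polymerase III genes, such as those of tRNAs, carry an internal promoter element named the B box.

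Tandem repeats of short units, long runs of 2-base units, GA-rich sequence and B box sequence recurred at these summits. The sequences shown here are those 5′ to 3′ of the reference genome, from RefSeq's WBcel235 assembly, which is ce11. Each covers 50 bases on both sides of a summit, apart from the 2 gene sequences at the end. The first set shows repeats, with capitals for the first 27-base unit of the repeat at rank 30 (chrIII:931557-931657, plus strand) and for the run of 2-base units at rank 352 (chrIII:445704-445804, plus strand) and rank 511 (chrIV:6576059-6576159, plus strand).
rank 30: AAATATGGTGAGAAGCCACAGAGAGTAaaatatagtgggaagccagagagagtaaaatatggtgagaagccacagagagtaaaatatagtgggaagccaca
rank 352: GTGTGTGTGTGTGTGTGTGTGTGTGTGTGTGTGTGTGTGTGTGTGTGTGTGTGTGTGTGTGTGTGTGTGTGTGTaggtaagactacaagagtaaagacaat
rank 511: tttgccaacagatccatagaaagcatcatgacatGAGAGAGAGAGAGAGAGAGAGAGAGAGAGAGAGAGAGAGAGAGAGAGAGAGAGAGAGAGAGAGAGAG

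The second set shows the motifs counted later, in capitals. They are GAGAGA at rank 307 in the first intron of sel-8 (chrIII:3620857-3620957, minus strand), the homeodomain core TAATTA at rank 258 in an intron of mom-1 (chrX:6296490-6296590, plus strand), and the B box GTTCGANNC at rank 109 in the noncoding gene K10H10.14 (chrII:14496972-14497072, plus strand), rank 132 in an intron of unc-104 (chrII:7001602-7001702, plus strand) and rank 732 (chrIII:89267-89367, minus strand).
rank 307: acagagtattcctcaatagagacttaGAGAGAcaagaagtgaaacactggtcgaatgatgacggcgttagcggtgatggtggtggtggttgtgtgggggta
rank 258: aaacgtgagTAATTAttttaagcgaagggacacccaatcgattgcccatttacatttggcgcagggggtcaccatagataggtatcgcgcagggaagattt
rank 109: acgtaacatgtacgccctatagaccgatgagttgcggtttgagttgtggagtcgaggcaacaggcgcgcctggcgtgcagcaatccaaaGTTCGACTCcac
rank 132: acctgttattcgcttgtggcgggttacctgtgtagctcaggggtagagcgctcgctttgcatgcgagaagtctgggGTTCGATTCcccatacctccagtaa
rank 732: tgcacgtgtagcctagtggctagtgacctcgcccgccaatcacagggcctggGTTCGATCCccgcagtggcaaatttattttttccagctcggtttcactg

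The third set holds 2 noncoding genes of 299 bp each, srpr-2.1 (chrIII:5211220-5211518, plus strand) and srpr-1.2 (chrIII:4369468-4369766, plus strand), whose class is named for the signal recognition particle RNA, the RNA of the particle that targets secreted proteins to the endoplasmic reticulum. They are shown whole and in lower case because the summit of a strong distal region lay in each.
srpr-2.1: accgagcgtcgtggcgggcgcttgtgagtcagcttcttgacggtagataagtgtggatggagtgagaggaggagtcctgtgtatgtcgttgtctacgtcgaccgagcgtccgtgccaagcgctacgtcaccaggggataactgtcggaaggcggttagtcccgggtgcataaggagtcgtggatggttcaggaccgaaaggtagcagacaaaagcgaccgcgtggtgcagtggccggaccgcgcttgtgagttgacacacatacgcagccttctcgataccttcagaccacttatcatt
srpr-1.2: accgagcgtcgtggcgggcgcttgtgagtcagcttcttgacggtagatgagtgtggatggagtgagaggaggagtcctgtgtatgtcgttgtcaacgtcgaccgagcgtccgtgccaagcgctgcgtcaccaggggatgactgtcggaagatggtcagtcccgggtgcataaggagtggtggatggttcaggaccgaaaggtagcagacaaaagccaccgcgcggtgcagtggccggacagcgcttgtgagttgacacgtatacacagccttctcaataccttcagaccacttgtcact

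The signal, which chose the regions and is given only as a description, ran from 74.2 to 774 with a median of 84.8, on a scale the deposited notes do not state. The 10131 regions of the pooled list that met the same rule on position but ranked below 2000 serve as the reference throughout and are named the weaker distal regions, with signals of 36.9 to 74.2. Just inside rank 2000 were regions at F58D5.9 (rank 1997, signal 74.2351) and C34F6.10 (rank 2000, 74.2322), and just outside were let-526 (rank 2001, 74.2281) and mig-14 (rank 2002, 74.2269), so no gap in signal separates the regions kept from those left out. All but 8 regions were 430 bp wide, and those 8 ranked 190 or better. Overlapping regions were common enough to matter: the 687 merge into 662 places, of which 23 held more than 1 region. Shares below carry exact Clopper-Pearson 95% intervals, which cover counting error over regions only.

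Of the 5 distal regions of highest signal, at ranks 24, 30, 70, 109 and 112, 3 belonged to 1 family of near copies. Rank 24, with a signal of 774, lay between genes 4967 bp upstream of nas-30, an astacin metalloprotease gene, and ranked 22 in replicate 1 and 15 in replicate 2. Rank 30, with a signal of 636, lay 4460 bp downstream of the start of the F-box gene fbxa-55 and ranked 35 and 20. Rank 112, with a signal of 321, lay 2561 bp downstream of the start of C24H10.4 and ranked 103 and 111. These 3 regions and ranks 558 and 1189 were linked as near copies, meaning at least 90% identity over at least 100 bp, although they lay at 5 separate places of the genome. Near copies of rank 24 were found at 50 places in the genome, 11 of which had their middle in a pooled region and 3 of which in a region of rank 2000 or better. How reads that map to several copies were placed is not given in the labels or notes, and its part in these signals was not tested.

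A tandem repeat was counted where at least 80% of the bases within 100 bp of the summit equalled the base 1 period further on, for some period up to 60 bp. By this count 15 of the 687 summits lay in a tandem repeat (2.18%, 1.23 to 3.58), against 46 of the 10131 weaker distal summits (0.454%, 0.333 to 0.605) and 3 of the other 1292 strong regions (0.232%, 0.0479 to 0.677). The periods varied. Rank 213, 2780 bp from the start of T28H10.2, had a period of 9 bases and rank 232 near F18E9.1 of 10 bases. Rank 304, 4036 bp upstream of the transthyretin-related gene ttr-17, had a period of 45 bases. The summit of rank 232 lay in no region of replicate 1, the region ranked 260 in replicate 2, and it overlaps rank 190. The 51 bases at the summit of rank 304 began at 68 positions of the genome, where overlapping positions inside 1 repeat count separately. Near copies of rank 304 were found at 3 places. Ranks 213 and 304 were near copies, so their periods of 9 and 45 bases need not be different repeats. Of the 15 tandem-repeat regions, 6 were on the authors' reproducible list, against 10.2% of all 687. That list follows the signal, and 5 of the 15 ranked 1 to 500.

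Runs of TG or GA formed the second kind of repeat. An uninterrupted TG run of at least 20 bases lay within 50 bp of 12 summits (1.75%, 0.906 to 3.03), against 0.178% of the weaker distal summits (0.105 to 0.281) and 0.387% of the other strong regions (0.126 to 0.901). They included rank 240 in an intron of ppfr-1, which encodes a regulatory subunit of protein phosphatase 4, rank 390 in an intron of ast-1, which encodes an ETS factor of dopaminergic neurons, rank 352 in the noncoding gene Y55B1BR.7, rank 377, 2408 bp downstream of the start of the nuclear hormone receptor gene nhr-175, and rank 534 in a noncoding gene near cyp-13B2. Those 5 were linked as near copies, were all on the reproducible list and ranked between 207 and 466 in replicate 1 and between 290 and 1471 in replicate 2. The 51 bases at the summit of rank 390 began at 871 positions of the genome. Positions that overlap inside 1 run were counted separately, and near copies of rank 390 were found at 15 places. A GA run of at least 20 bases lay at 13 summits (1.89%, 1.01 to 3.21), against 0.217% of the weaker distal summits (0.136 to 0.329) and 0.387% of the other strong regions. Of those 13, 11 were intergenic, against 44.0% of all 687 regions. Reproducible were 3 of the 13 and 7 of the 12 with a TG run, against 10.2% of all 687. Ranks 1 to 500 held 2 of the 13 and 6 of the 12.

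The genome was then searched for every such run, in a count added after these summits had been seen. The 24 TG runs of at least 60 bases had their middle in a pooled region in 23 cases (95.8%, 78.9 to 99.9) and in a region of rank 2000 or better in 13 (54.2%, 32.8 to 74.4). Of the 57 GA runs of that length, 44 lay in a pooled region (77.2%, 64.2 to 87.3) and 19 in one of rank 2000 or better (33.3%, 21.4 to 47.1). Of the 34 AT runs, 4 lay in a pooled region (11.8%, 3.30 to 27.5) and 0 in one of rank 2000 or better, where 0 allows up to 10.3%. Pooled regions covered 8.43% of all nuclear bases, and those of rank 2000 or better 0.803%. Both replicates gave the same order, with 22 of 24 TG runs in a region of replicate 1 and 21 in one of replicate 2, 41 and 38 of the 57 GA runs, and 5 and 2 of the 34 AT runs. The runs of 1 kind share sequence, so they are not independent sites.

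**Figure D1:**
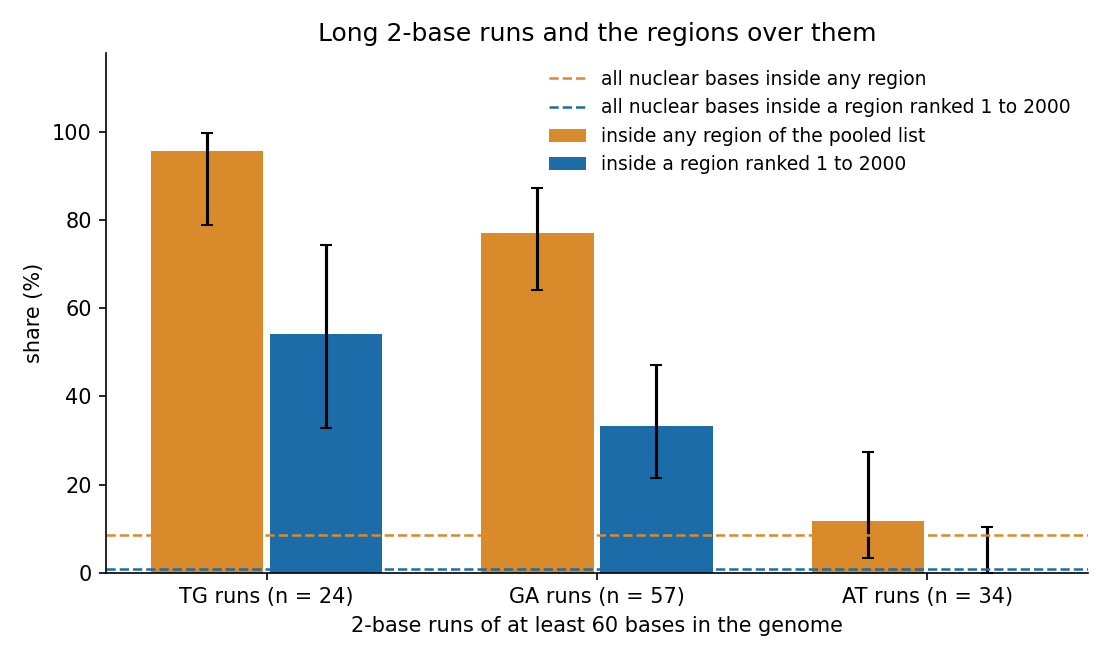
Share (%) of the 24 TG, 57 GA and 34 AT runs of at least 60 bases whose middle lay in any pooled region (orange bars) or in a region ranked 1 to 2000 (blue bars), with exact 95% intervals. The dashed lines give the same shares of all nuclear bases, 8.43% and 0.803%: TG and GA runs stand above them, and the interval of AT runs spans them.

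Repeats were not the usual case. Together a tandem repeat, a TG run or a GA run marked 38 of the 687 summits (5.53%, 3.94 to 7.51), against 0.839% of the weaker distal summits (0.671 to 1.04). The share was 24.0% of the 50 regions ranked 1 to 500 (13.1 to 38.2), 5.20% of the next 173, down to rank 1000 (2.41 to 9.65), and 3.66% of the 464 from there to rank 2000 (2.15 to 5.80). Repeat-masked bases as a whole went the other way: 226 summits lay on a base that the reference marks as masked (32.9%, 29.4 to 36.6), against 39.8% of the weaker distal summits (38.9 to 40.8) and 37.5% of the bases that meet the rule on position. The 51 bases at the summit began at more than 1 position of the genome for 12 regions (1.75%), against 1.33% of the weaker distal summits, with overlapping intervals. At least 10 such positions were found for 7 regions (1.02%, 0.411 to 2.09), against 0.276% of the weaker distal summits (0.184 to 0.399). Positions that overlap inside 1 run or tandem repeat count separately, so this count can repeat those of runs and tandem repeats. The strong regions thus held more summits with at least 10 such positions and fewer masked ones.

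Most of the regions lay between genes or in introns. By the annotation at the summit, 302 were intergenic (44.0%, 40.2 to 47.8), 247 intronic (35.95%, 32.4 to 39.7), 54 in an untranslated exon part (7.86%, 5.96 to 10.1), 51 in a noncoding gene outside protein-coding genes (7.42%, 5.58 to 9.65) and 33 in a coding exon (4.80%, 3.33 to 6.68). Among the weaker distal regions the shares were 38.0%, 39.4%, 6.04%, 3.79% and 12.7%, and among the bases that meet the rule on position 35.6%, 33.4%, 3.56%, 5.73% and 21.7%. The intergenic and noncoding shares of the strong regions thus stood above those of the weaker ones and the coding exon share below, with intervals that did not overlap in the pooled list. The rule was also applied to the list of each replicate alone, still beside the weaker regions of the pooled list. The intergenic share was then 41.4% in replicate 2 (37.8 to 45.1) and 41.7% in replicate 1 (38.1 to 45.3). Both intervals overlap that of the weaker pooled regions (37.1 to 39.0). The noncoding share was 4.68% in replicate 2 alone (3.26 to 6.47), which overlaps the interval of the weaker pooled regions (3.43 to 4.18). In replicate 1 alone it was 7.17%. Among intergenic regions of high signal outside the repeats described above, rank 250 lay 1794 bp upstream of F20B6.9 with ranks of 326 and 208, and rank 268 lay 3984 bp downstream of the start of W02H3.3 with ranks of 323 and 236.

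**Figure D2:**
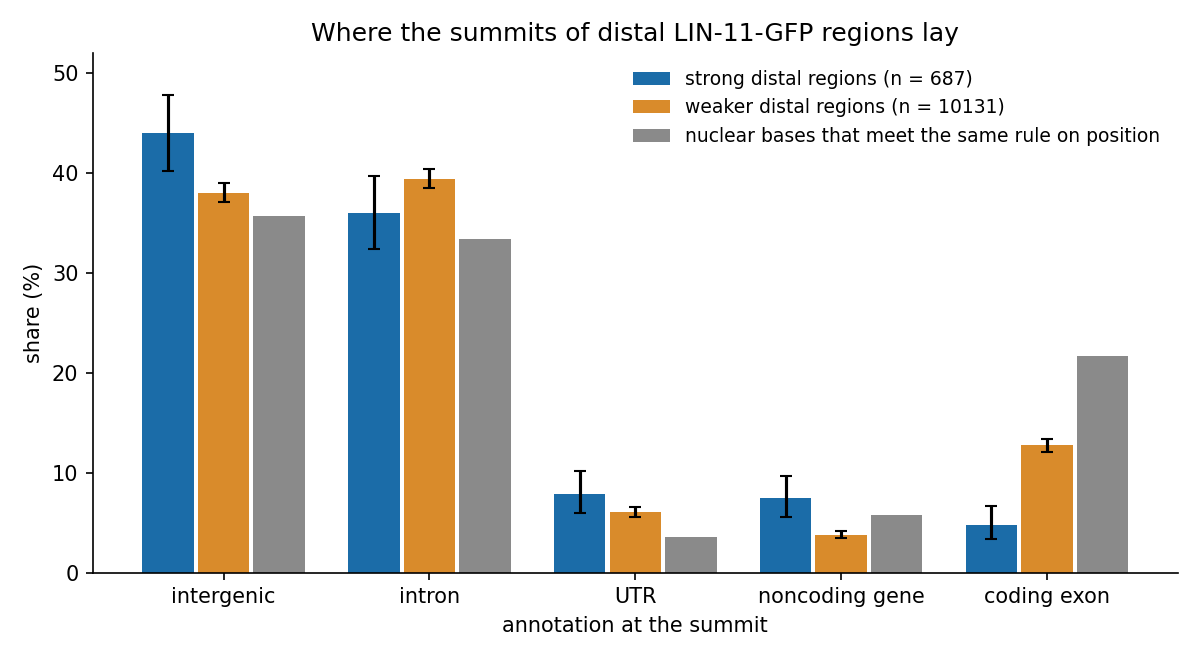
Share (%) of summits by annotation for the 687 strong distal regions and the 10131 weaker distal regions, with exact 95% intervals, beside the share of the nuclear bases that meet the same rule on position. The intergenic bar of the strong regions stands at 44.0% and their coding exon bar at 4.80%, against 12.7% and 21.7% for the 2 references.

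Intronic regions sat in long introns. The intron at the summit had a median length of 3141 bp, with quartiles of 1043 and 7606 bp, against a median of 1357 bp for the 3991 weaker intronic summits in the pooled list. The part of the rule on distance in these lengths was not tested. First introns held 89 of the 247 (36.03%, 30.04 to 42.4), against 22.9% of the weaker ones (21.6 to 24.3). Examples of high signal were rank 307 in the 8533 bp first intron of sel-8, which encodes the Mastermind-like cofactor of Notch signalling, with ranks of 355 and 201 in the replicates, and rank 258 in intron 7 of mom-1, a Porcupine gene of Wnt secretion, with ranks of 253 and 240. Rank 330 lay in intron 8 of usp-39 with ranks of 528 and 311, and rank 344 in intron 8 of C14B4.2 with ranks of 325 and 583. Rank 156, in a 9612 bp intron of Y57G11C.22, held the B box letters on both strands and ranked 130 and 268.

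Coding exons and untranslated parts held few regions of high signal. The coding exon region of highest signal was rank 236 in dos-3, a gene of the DOS-motif family, with a signal of 199 and ranks of 263 and 221, and it was the only 1 of the 33 on the reproducible list. The next were ranks 595 and 662 in the collagen gene dpy-14, which overlap, then rank 1018 in sma-9, a Schnurri homologue, rank 1053 in the CREB gene crh-1 and rank 1079 in Y17G7B.17. In untranslated parts, rank 598 in the small GTPase gene rho-1 came first with a signal of 114, followed by bed-2, phm-2, din-1, the chaperonin gene cct-7 and the alpha spectrin gene spc-1 at rank 774. None of the 54 was on the reproducible list. Every reproducible distal region had a higher signal than rank 598, the strongest of the 54. Their absence from that list therefore follows from their signal, and no separate share can be read from it.

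Noncoding genes were more frequent at these summits than at weaker ones. Counting those inside introns as well, 69 summits lay in any noncoding gene (10.04%), against 5.07% of the weaker distal summits. Unclassified ncRNA genes held 51 of them (7.42%, 5.58 to 9.65, against 2.50%, 2.20 to 2.82), lincRNA genes 8 (1.16%, against 0.523%), antisense RNA genes 3 (0.437%, against 0.0494%) and pseudogenes 9 (1.31%, against 1.91%). Of the 51 regions in a noncoding gene outside protein-coding genes, 12 were reproducible (23.5%, 12.8 to 37.5). This stood against 10.3% of intergenic and 10.5% of intronic regions, with intervals that overlap. The reproducible list follows the signal that chose the regions, so these shares restate their ranks and show no separate support by the replicates. The strongest were rank 70 in Y106G6E.7 near lin-11, rank 109 in K10H10.14, 1004 bp upstream of the dehydrogenase gene dhs-8 and so close to the limit of the rule, rank 204 in srpr-2.1 and rank 238 in the pseudogene T26C11.3. The nearest protein-coding starts were those of the casein kinase gene csnk-1 for rank 70 and of the syntaxin gene syx-16 for ranks 204 and 316, both in srpr-2.1.

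Every srpr gene had a pooled region. The annotation holds 5 of them, and the strongest region at each ranked 121 (srpr-2.2), 204 (srpr-2.1), 291 (srpr-1.2), 381 (srpr-1.1) and 2319 (srpr-3). Only those at srpr-2.1 and srpr-1.2, the latter in an intron of the choline kinase gene ckb-2, met the rule on both position and rank, since the summits at srpr-2.2 and srpr-1.1 lay 565 and 991 bp from one, and srpr-3 missed the limit on rank with a signal of 71.1. The region at srpr-2.1 ranked 271 in replicate 1 and 171 in replicate 2, and that at srpr-1.2 ranked 343 and 281. The genes srpr-2.1 and srpr-1.2 were identical at 282 of 299 aligned positions, srpr-2.1 and srpr-2.2 at 296, and srpr-1.1 and srpr-1.2 at 294, whereas srpr-3 matched srpr-2.1 at 246 of 300 positions. Reads of such near copies can be placed at more than 1 of them, so the 4 values are not separate measurements, and the part of shared reads was not tested.

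B box letters also lay outside annotated tRNA genes. The sequence GTTCGANNC, with N for any base and on either strand, lay within 50 bp of 14 summits (2.04%, 1.12 to 3.40), against 0.642% of the weaker distal summits (0.496 to 0.817), 0.873% in each of the windows 400 bp to the left and right, and 10.3% of the other strong regions, which include those at tRNA genes. Applied to the list of replicate 1 alone the share was 1.35% (0.651 to 2.47), which overlaps the interval of the weaker summits of the pooled list. With replicate 2 alone the share was 1.65% (0.856 to 2.87). Of the 14, 9 ranked 2000 or better in both replicates, against 23.6% of all 687 regions, and 4 ranked 1 to 500. Rank 132, in intron 4 of unc-104, the kinesin gene for the transport of synaptic vesicle precursors, coincided with the annotated tRNA pseudogene C52E12.t1, and its sequence matched the tRNA gene B0491.t1 at 98.5% identity over 68 bp. It ranked 114 and 161 in the replicates. Ranks 109, 156, 447, 571 and 732 also held the letters. The rule itself keeps every region over 200 bp from annotated small RNA genes, so their absence there is no result. Of all 687 regions, 2 lay within 200 bp of a tRNA pseudogene (0.291%, against 0.158% of the weaker distal regions). A match to an annotated small RNA gene, at 80% identity or more over at least 50 bp, was found for 4 regions (0.582%, 0.159 to 1.48). No share of the weaker distal regions is available beside this count, so it cannot be called high or low. A match is a string of letters and not a proven promoter.

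The lin-11 locus itself carried a group of regions. Within 20 kb of lin-11 (ce11, chrI:10248288-10255327, plus strand) there were 23 pooled regions, of which 8 were strong distal regions, or 2.05 per 10 kb of eligible bases against 0.117 per 10 kb over the genome. The strongest, rank 70 with a signal of 437, lay 12958 bp upstream of the lin-11 start in the noncoding gene Y106G6E.7 and ranked just outside the first 100 in replicate 1 and 46 in replicate 2. Rank 454 lay 10873 bp upstream and rank 1316 5281 bp upstream, with replicate ranks of 390 and 2844, and of 2835 and 1738. Rank 212, with a signal of 217, lay in intron 7 of lin-11, 4511 bp downstream of its start, and ranked 184 and 219. Rank 251, with a signal of 195, lay 12057 bp downstream of the lin-11 start in an intron of the neighbouring gene ZC247.2 and ranked 327 and 207.

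Of those 8, 4 were on the reproducible list, namely ranks 70, 212, 251 and 454, against 10.2% of all 687 regions. That list follows the signal. Ranks 574 and 638 overlap ranks 70 and 212 and fall in the same replicate regions, so they add no separate place. Rank 1922, 11534 bp upstream, was placed 826 in replicate 2 but 18089 in replicate 1. None of the 8 summit windows held TAATTA. The strain carries the tagged lin-11 transgene, the extra copies of lin-11 sequence that it brings cannot be told apart from the chromosomal locus in these lists, and whether they raise the signal there was not tested.

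**Figure D3:**
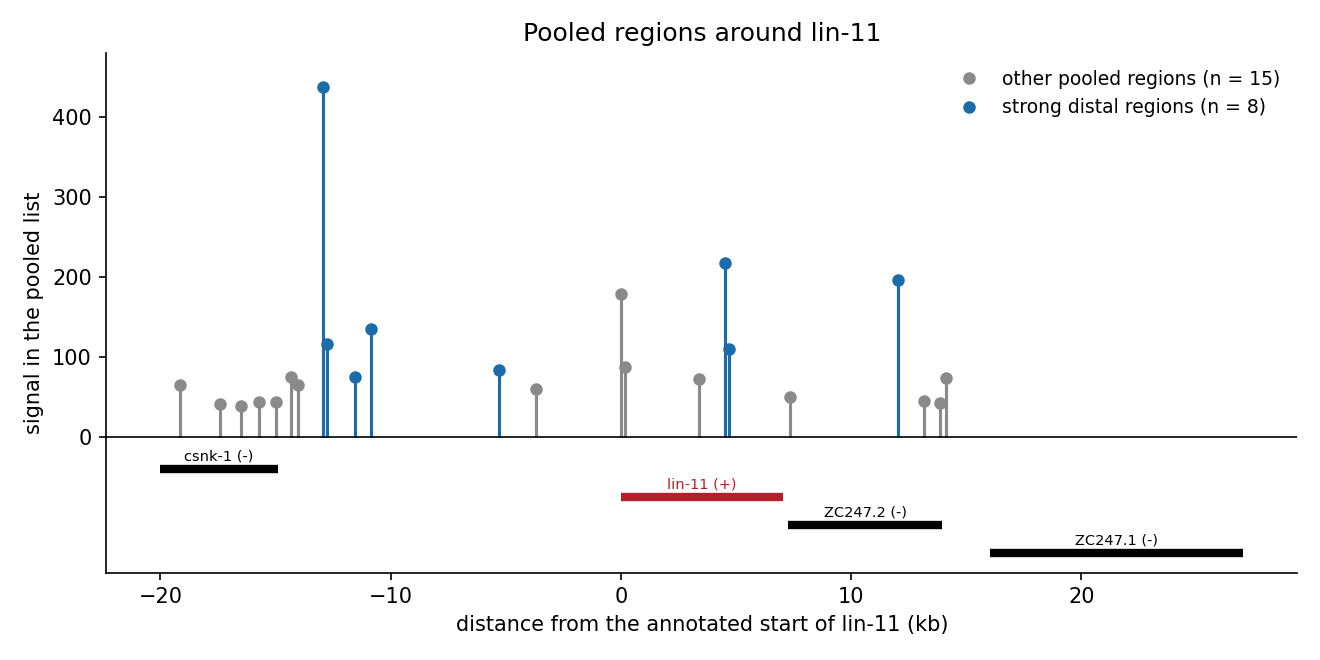
Signal in the pooled list (vertical axis, no unit stated) of the 23 pooled regions against their distance in kb from the annotated lin-11 start, with protein-coding genes and their strands drawn below. The 8 strong distal regions are blue and stand at 75.03 to 437, the highest of them 12958 bp upstream.

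Several genes held more than 1 region in their body. In all, 334 regions fell in the bodies of 272 protein-coding genes, 32 of which held 2 and 11 of which held 3 or more. The gene hmr-1, which encodes the classical cadherin, held 6 regions, ranks 980 to 1978, over 49446 eligible bases, a density of 1.21 per 10 kb. None of these 6 ranked 2000 or better in both replicates. The gene egl-18, which encodes a GATA factor of epidermal seam cells, held 5 intronic regions, ranks 589 to 1145, at 4.29 per 10 kb, and 1 of these ranked 2000 or better in both replicates, at 563 and 1251. The gene ldb-1, which encodes the LIM domain-binding cofactor, held 3 intronic regions at 3.79 per 10 kb: rank 730 with replicate ranks of 1190 and 703, rank 940 with 1286 and 2504, and rank 1972, which lay in no region of replicate 1 and ranked 1151 in replicate 2. All of these stand against the genome average of 0.117, which the choice of genes with many regions makes an uneven comparison.

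The other genes with 3 or more were Y48C3A.5, the DYRK kinase gene mbk-2 and ppfr-1 with 4 each, and ell-1, hlh-30, lsy-22, mpz-1 and the ephrin receptor gene vab-1 with 3 each. In lsy-22, which encodes a Groucho-related cofactor of neuronal asymmetry, all 3 lay in the 11392 bp first intron, with signals of 110 to 119. They ranked 408, 942 and 594 in replicate 1 and 2533, 452 and 1663 in replicate 2. The order of the 3 therefore differed between the replicates.

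Host and nearest genes were counted over 16 lists chosen by gene symbol, with the host gene taken where the summit lay in a gene body and otherwise the gene of the nearest start. Synapse and axon guidance genes were assigned 33 regions at 20 genes (4.80%, 3.33 to 6.68, against 3.44% of the weaker distal regions, 3.09 to 3.81). Examples were unc-104 at rank 132, the semaphorin gene smp-1 at rank 510 and the kinesin heavy chain gene unc-116 at rank 517. The list named for neural regulators of the bHLH, Sox and zinc finger kinds held 9 regions (1.31%, 0.601 to 2.47, against 0.553%, 0.418 to 0.717), led by ast-1, lsy-22 and hlh-30. The list is named for its main kinds and also holds genes of other kinds: 5 of the 9 regions lay in ast-1 and lsy-22, which encode an ETS factor and a Groucho-related cofactor, 3 in hlh-30 and 1 in egl-13. Its genes were taken by symbol, which does not show a neural role, and for hlh-30 none is claimed here. Without replicate 2 the share of this list was 0.812%. Nuclear hormone receptor genes held 15 (2.18%, against 1.64%), led by nhr-175, nhr-45 and nhr-277. These intervals overlap, so at this number of regions a difference was not detectable for any of the 3.

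LIM homeobox genes held 4 regions (0.582%, 0.159 to 1.48, against 0.0987%, 0.0473 to 0.181), 3 of them at lin-11, of which 2 overlap, and 1 at lim-4, a gene of neuronal identity, at rank 1262. Without the surroundings of lin-11 this share fell to 0.147%, and it was 0.963% without replicate 1 and 0.271% without replicate 2. The lim-4 region ranked 507 in replicate 2 but 11216 in replicate 1. Other homeobox genes held 5 (0.728%, against 1.19%), led by the Meis gene unc-62, zfh-2 and dve-1, and vulva and uterus genes held 5 (0.728%, against 0.622%), at lin-11, fos-1 and lin-1.

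The chemoreceptor list had fewer regions than among the weaker distal regions. Chemoreceptor genes, with 1365 members the longest list, held 4 (0.582%, 0.159 to 1.48, against 2.11%, 1.84 to 2.41), at genes that included srt-52 at rank 137, sre-47 at rank 433 and src-1 at rank 876, with intervals that did not overlap. The symbol src-1 is that of a Src-type tyrosine kinase gene, so its match to the chemoreceptor naming pattern is by letters alone. Ion channel and neurotransmitter receptor genes held 7 (1.02%, 0.411 to 2.09, against 2.34%, 2.05 to 2.65), led by lgc-46, slo-1 and ser-7, with intervals that overlap, and the share was 1.51% without replicate 1 and 1.89% without replicate 2. Neuropeptide genes held 1, near daf-28 (0.146%, 0.00369 to 0.808, against 0.602%, 0.461 to 0.773), C-type lectins and immune effectors 0 (against 0.415%), ribosomal protein genes 0 (against 0.118%) and histone genes 0, as among the weaker distal regions. A count of 0 of 687 allows up to 0.536%. With 1 replicate left out, neuropeptide genes held 0 or 1 region, C-type lectins and immune effectors 1, and ribosomal protein genes 0 or 1.

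The intervals of the remaining lists overlap those of the weaker distal regions. Cuticle and epidermis genes held 9 (1.31%, against 1.91%), led by nas-30, dpy-14 and dpy-3, and detoxification enzyme genes held 6 (0.873%, 0.321 to 1.89, against 0.444%, 0.324 to 0.594), led by dhs-8, cyp-13B2 and ugt-50. F-box, BATH and MATH genes held 4 (0.582%, against 0.464%), led by fbxa-55, fbxc-51 and bath-37. Heat shock and chaperone genes held 3 (0.437%, against 0.316%), at cct-7, cct-5 and dnj-24. These small counts moved with the replicate: detoxification enzymes fell to 0.413% and heat shock genes to 0.138% without replicate 1, and F-box, BATH and MATH genes fell to 0.135% and heat shock genes stood at 0.677% without replicate 2.

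The summits lay a median of 2532 bp from the nearest start, with a range of 1001 to 39921 bp. Within 2000 bp of a start there were 249 (36.2%), and more than 5000 bp away 112 (16.3%), close to the 39.4% and 14.9% of the weaker distal regions. The side differed more: 375 lay upstream of the nearest start (54.6%, 50.8 to 58.4), against 46.0% of the weaker ones (45.0 to 46.9) and 70.0% of the other strong regions. By chromosome the counts were 128, 115, 130, 99, 79 and 136 on I, II, III, IV, V and X. Chromosome V held 11.5% (9.21 to 14.1), against 15.5% of the weaker distal regions (14.8 to 16.2) and 18.6% of the eligible bases, and chromosome X held 19.8% (16.9 to 23.0), against 17.4% and 19.5%. The middle of the chromosomes, cut into 3 equal lengths, held 25.5%, against 26.3% of the weaker distal regions and 30.8% of the eligible bases.

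Support by the replicates was uneven. Of the 687 regions, 70 were on the authors' reproducible list, or 10.2%, all of them ranked 1 to 1000, against 36.3% of the other 1292 strong regions, 24.1% of the 926 that lay near a protein-coding start with no small RNA gene, 0% of the weaker distal regions and 2.61% of the whole nuclear list. Both that list and the ranks derive from the signal that chose the regions, so these shares describe the regions and test nothing. A rank of 2000 or better in both replicates was reached by 162, or 23.6%, against 49.1% of the other strong regions, 37.8% of those near a start, 0.207% of the weaker distal regions and 4.21% of the whole list. Rank 2000 or better was reached in replicate 1 alone by 260 (37.8%), in replicate 2 alone by 153 (22.3%) and in neither by 112 (16.3%). The same 3 shares were 23.7%, 16.3% and 10.8% of the other strong regions, and 28.8%, 19.8% and 13.6% of those near a start. Over the whole list they were 6.24%, 5.93% and 83.6%.

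Nearly all regions were present in each replicate's list, which is long and includes weak entries. A region of replicate 1 held 675 of the summits (98.3%) and a region of replicate 2 held 645 (93.9%), with 633 in both (92.1%) and 0 in neither. The other strong regions were close to this, at 98.8%, 95.4% and 94.3% in both. Over the whole nuclear list the shares were 67.6%, 54.6% and 32.5% in both, with 10.3% in neither. The replicates' own summits lay a median of 43 bp apart for the regions in both lists, 28 bp for the reproducible ones and 82 bp for the weaker distal regions. The median rank was 1529 in replicate 1 and 2120 in replicate 2. Spearman's rho between the replicates' ranks was -0.016 over the 633, 0.52 over the 67 reproducible regions in both lists and 0.59 over 1218 other strong regions. Choosing on the combined signal leaves out regions that are low in both replicates, so these values are a description of the chosen sets, and regions share their library and neighbourhood.

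Gaps between replicates were taken as the ratio of the 2 ranks, over the 633 regions in both lists only. The widest were at rank 728 near Y81B9A.2, placed 14357 in replicate 1 and 313 in replicate 2, at rank 1834 in the first intron of the Period homologue gene lin-42, placed 15858 and 442, and at rank 766 upstream of dcp-66, placed 450 and 14751. Each of these 3 rests on 1 replicate.

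**Figure D4:**
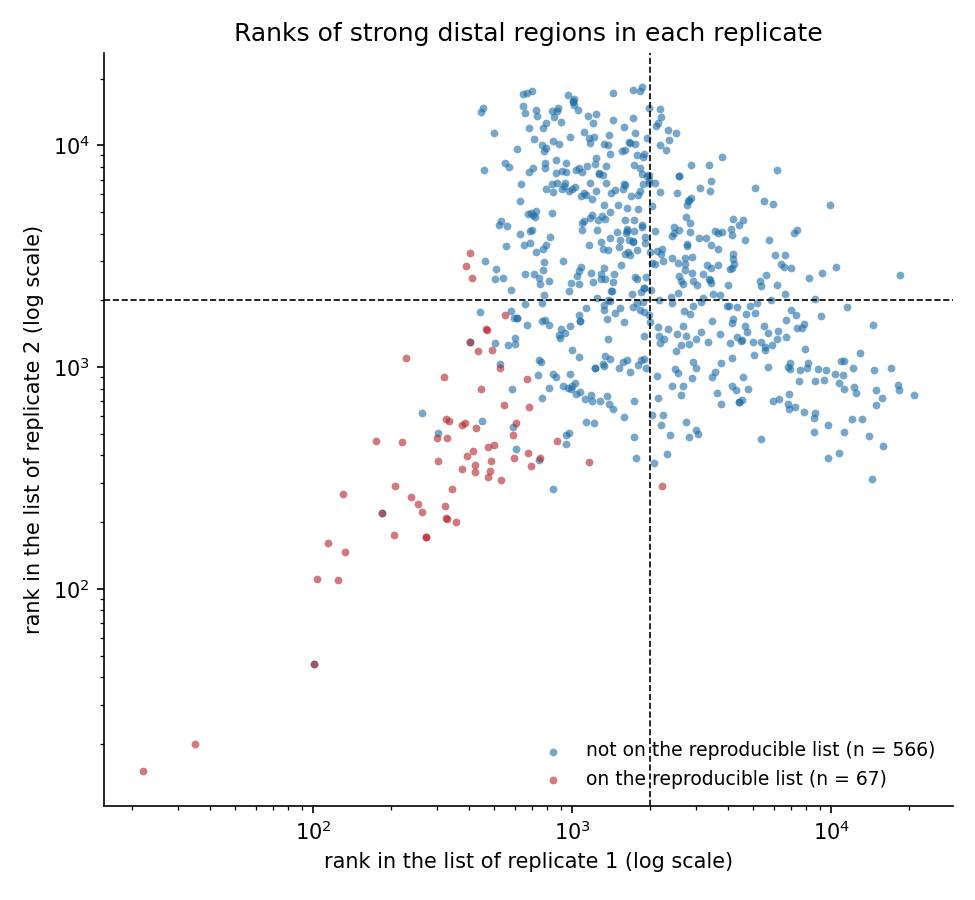
Rank in the list of replicate 1 (horizontal, log scale) against rank in the list of replicate 2 (vertical, log scale) for the 633 strong distal regions in both lists, red where the region was on the reproducible list (n = 67). Dashed lines mark rank 2000: the red points run along the diagonal at the lower left, and the others spread into the quadrants where only 1 replicate ranked the region 2000 or better.

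GAGAGA was the most frequent of the 7 motifs searched on both strands within 50 bp of the summit. It occurred at 137 summits (19.9%, 17.0 to 23.1), against 9.05% of the weaker distal summits (8.50 to 9.63), 13.9% of the other strong regions and 9.34% of the whole nuclear list. In windows of the same width centred 400 bp to the left and right of the summits it occurred in 5.39% and 7.71%. The contrast with weaker regions was present without GA runs, at 18.4% of 674 summits (15.5 to 21.5) against 8.85% of 10109 (8.31 to 9.42), and on unmasked summits, at 22.8% against 10.6%. By place it was 24.5% against 10.7% for intergenic, 15.8% against 7.99% for intronic and 27.5% against 13.5% for noncoding gene summits, where the intervals overlap (15.9 to 41.7 against 10.3 to 17.4). In untranslated exon parts 9 of 54 summits held it (16.7%, 7.92 to 29.3, against 11.1%, 8.73 to 13.9), and in coding exons 1 of 33 (3.03%, 0.0767 to 15.8, against 5.11%, 3.98 to 6.46), again with overlapping intervals. With the list of replicate 2 alone the share was 14.99%, and with replicate 1 alone 18.3%.

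Base composition differed between the sets, with a median GC content of 42.6% at the summits, 36.6% at weaker distal summits, 46.5% at other strong summits and 47.5% at the reproducible distal ones. All 20 hexamers of 3 G and 3 A, on both strands, were therefore counted. Each was more frequent at the strong than at the weaker distal summits, by 1.14 times for GGGAAA up to 2.17 times for AGAGAG and 2.20 times for GAGAGA, which came first of the 20. The last 2 overlap in longer GA repeats, so they are not separate counts. The part of base composition in these shares was not tested.

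Homeodomain sequence was not more frequent at the summits. TAATTA occurred at 21 of them (3.06%, 1.90 to 4.63), against 4.76% of the weaker distal summits (4.35 to 5.19) and 5.97% and 4.66% of the left and right windows. The variant TAATTG occurred at 5.39% (3.82 to 7.35), against 7.50%, with 8.59% and 6.26% in the windows. TAATTA is AT-only sequence, and the summits were richer in GC than the weaker ones, so the part of composition in this order was not tested. Of the reproducible distal regions, 2 of 70 held TAATTA, 1 of them rank 258 in mom-1.

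The other motifs were near or below the weaker regions. The GATA site TGATAA occurred at 4.08% (2.73 to 5.84), against 7.36% of the weaker distal summits (6.86 to 7.89) and 8.15% and 10.3% of the windows. The forkhead core TGTTTA occurred at 5.97%, against 5.85%, and the E box CACGTG at 1.46%, against 1.72%. No match says only that these letters were absent from the window.

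**Figure D5:**
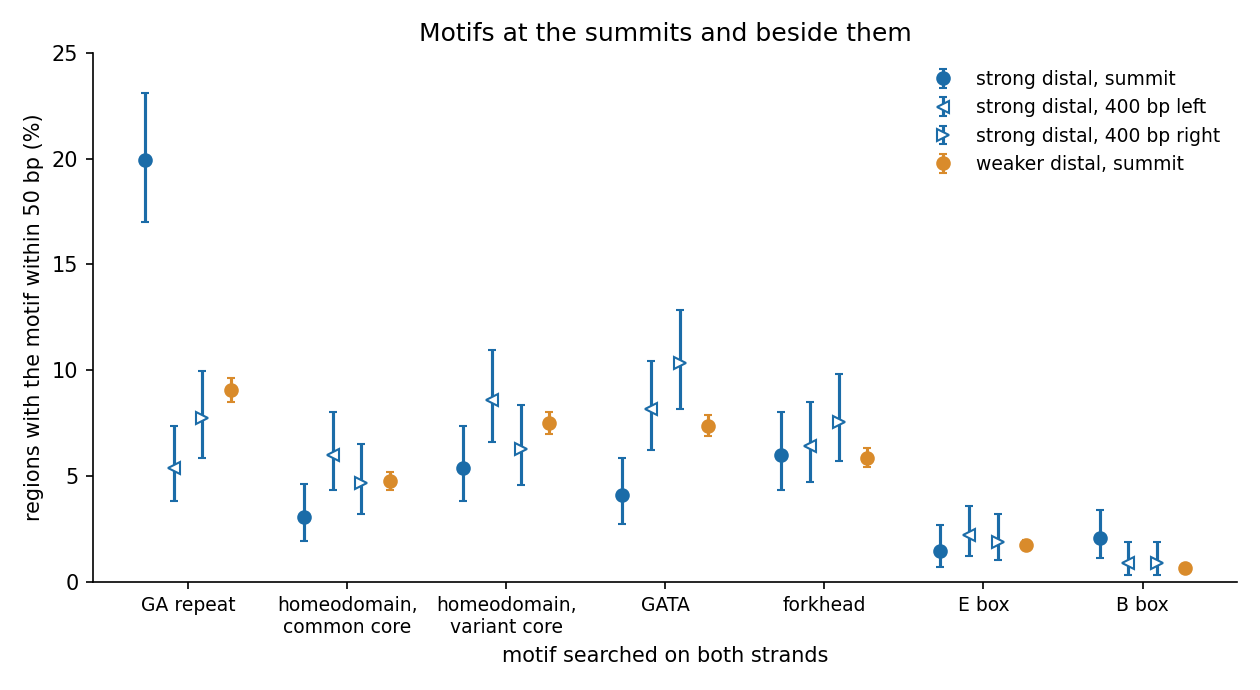
Share (%) of regions with each of 7 motifs within 50 bp, with exact 95% intervals, at the summits of strong distal regions (filled blue), 400 bp to their left and right (open blue) and at weaker distal summits (orange). GAGAGA, named GA repeat, stands at 19.9% at the strong summits and at 9.05% at the weaker ones, and TAATTA, the common homeodomain core, at 3.06% and 4.76%.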

How the data were processed

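Per the deposited notes, the authors made 1 region list per replicate and 1 pooled list from both alignments, each with 1 control alignment, and derived the reproducible regions from these 3 lists, on assembly ce11. The deposited signal value is relative to that control by the authors' peak caller. No label or note names the aligner, the peak caller or a threshold. The deposited summit offset placed each summit. Gene models came from Ensembl release 115, and sequence and names of 2773 genes from RefSeq's WBcel235. Regions were ranked by signal, annotated and counted with Python 3.11.15, numpy 2.4.6, pandas 2.3.3 and scipy 1.17.1. Classes were given in the order coding exon, UTR, intron, noncoding gene, intergenic. A region was in a replicate's list when a region there held its summit. Near copies of the sequence within 100 bp of each summit were sought with BLAST 2.17.0 (e-value 1e-05). Searches were tested on simulated data.

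The rule, gene lists and motifs were chosen with earlier results of these data known. With 1 group no test was made. Genes named were those of the 25 regions of highest signal (1 without a symbol is left out), of 3 or more regions, leaders of each class and list, those near lin-11, just inside and outside rank 2000, with the B box, and with the widest gaps between replicates. Other features, the tandem repeats, 2-base runs, srpr genes and hexamers among them, were chosen after their values were seen. Alternatives changed the limits on rank and distance, the list, the windows and the class order.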

Additional observations from a re-analysis of the deposited data

How the results depend on the processing

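Under the alternatives, 96 values of the main results and 169 others stayed within the 95% interval, or within 1.5 times the count, of the reported value, 16 and 15 moved further, and the cause of the other changes was not tested. With ranks 1 to 1000 there were 223 regions, of which 1.35% lay in coding exons, 12.1% in noncoding genes and 27.8% on masked bases, 31.4% were reproducible, 60.1% ranked 2000 or better in both replicates, 23.3% held GAGAGA, 3.59% the B box and 9.42% a repeat or 2-base run. Over 2000 bp from a start there were 438. Noncoding genes before introns gave 9.90%, masking of at least 50% of the bases within 50 bp gave 25.5%, and a window of 100 bp on both sides gave 6.40% for TAATTA and 31.3% for GAGAGA. Leaving out a replicate gave 727 to 739 regions, coding exons 4.33% to 7.02%, UTRs 7.43% to 9.47%, introns 37.3% to 39.5%, noncoding genes 4.68% to 7.17%, intergenic 41.4% to 41.7%, reproducible 9.90% to 10.01%, chromosome X 18.9% to 19.7%, masked 34.1% to 34.5%, TAATTA 3.38% to 3.71%, GAGAGA 14.99% to 18.3% and the B box 1.35% to 1.65%. First introns ranged from 29.6% to 33.3% and repeats or 2-base runs from 3.71% to 4.06%. No paired analysis was possible because there was only 1 group. Depth is unknown, so no limit of detection per region can be given, and fewer cells that bind and weaker binding per cell cannot be told apart.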
